A study of Gallus gallus with 8 samples.

Results

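The short arm of chicken chromosome 4 was examined in Nrf2 CUT&Tag peak lists from broiler liver (Gallus gallus). Its members were all peaks on chromosome 4 that start below 19 Mb (galGal6), merged across the 8 lists into regions wherever they overlapped or touched. The rule gave 979 peaks in 520 regions, of 66669 peaks in 30246 regions in the whole series. There is 1 list per sample, in 2 groups of 4. The 4 HT samples are labelled high temperature in the treatment type field and "High" in the description. The labels of the 4 PT samples conflict: the treatment type is phloretin, a polyphenol of apples, the description calls them normal, and the protocol field gives a high temperature treatment for all 8 samples. HT is therefore compared with PT by name, with no statement on what the PT birds received. The labels used here give no age, sex, line or dose, and none states whether samples of the same group are separate birds, so the p-values measure only the spread between these lists, which may be technical. The tissue label was not checked, because peak lists hold no gene levels.

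Bird genomes consist of a few large macrochromosomes and many small microchromosomes, which are rich in genes and in G and C bases. Chicken chromosome 4 joins both kinds: its long arm is a macrochromosome, and its short arm is an ancestral microchromosome that fused to it and that remains separate in most other birds. Nrf2 is the transcription factor that, released from its inhibitor Keap1 under oxidative or electrophilic stress, pairs with small Maf proteins and switches on antioxidant and detoxification genes. In CUT&Tag an antibody guides a transposase that cuts and tags the DNA beside the bound protein, and peaks are stretches where such fragments pile up. The results below set the short arm beside the long arm of the same chromosome and beside chromosomes 11 to 33. Of chromosomes 11 to 33, 22 held peaks. No list names chromosome 29, and whether the build holds it was not checked.

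The whole lists held 5120 to 7302 peaks in PT and 9437 to 11141 in HT. They hold no read counts, so the depth of each sample is unknown. Lists of the same group also share peak ends to the base. On the short arm, 63.4% to 82.1% of the overlapping peaks of a PT pair and 52.9% to 77.1% of those of an HT pair had the same start and end, against 1 of 67 overlaps between the groups. The lists of a group may thus not be independent, and every p-value below assumes that they are.

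The arm limit was given by the rule and not found from the peaks. No list had a peak from chr4:18697017 to chr4:19357259, and these 660 kb were the longest stretch without a peak between neighbouring regions on all of chromosome 4. The limit of 19 Mb lies inside it. The next longest stretch, 607 kb from chr4:63510654 to chr4:64118136, lies within the long arm, so such a stretch alone does not mark a limit. Whether reads can be placed in these stretches was not checked. The last region inside the arm, chr4:18696744-18697016, was in 1 PT list, and the first region outside it, chr4:19357260-19357868, was in every PT list and in no HT list. Within the arm the longest such stretch was 245 kb.

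More short-arm peaks were listed in HT than in PT, and the arm's share of a list was nearly equal in both groups. PT lists 1 to 4 held 103, 75, 101 and 95 short-arm peaks. HT lists 1 to 4 held 145, 153, 143 and 164. The groups did not overlap, and PT list 2 was both the lowest on the arm and the shortest list overall. The means were 151 ± 9.54 in HT and 93.5 ± 12.8 in PT (SD, n = 4 lists each), a ratio of 1.62 (difference 57.75, exact two-sided permutation p = 0.0286, the smallest that 70 relabellings allow; Benjamini-Hochberg adjusted p = 0.0381 over 12 tests). Covered length moved likewise, with 72.7 ± 3.78 kb in HT and 46.3 ± 5.86 kb in PT (same exact permutation p and adjusted p).

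As a share of each list, the arm held 1.59%, 1.46%, 1.38% and 1.43% of PT peaks and 1.48%, 1.43%, 1.52% and 1.47% of HT peaks. The groups overlapped throughout. Their means of 1.47 ± 0.0366% in HT and 1.47 ± 0.0876% in PT differed by 0.00574 percentage points (exact permutation p = 0.886, adjusted p = 0.886). The higher number of short-arm peaks in HT thus went with longer lists. When each list was cut to its 5120 best-scoring peaks, as many as the shortest list has, the direction turned: HT lists kept 55 to 70 short-arm peaks and PT lists 66 to 76, a difference of -9 (exact permutation p = 0.114). The difference in covered length turned likewise, to -5.84 kb (exact permutation p = 0.0857). The cut drops low-scoring peaks, and more of them from the longer HT lists. Short-arm peaks ranked below the middle of every list (median percentile 40.02 to 47.7). At the same cut the long arm also turned, to -58.5 peaks, and the microchromosomes did not (219.5 peaks). Neither short-arm difference passed the threshold at this cut, and the turn was shared with the long arm. The part of the cut in it was not tested.

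The short arm was denser in peaks than the long arm in each of the 8 lists. It held 7.96 ± 0.502 peaks per Mb in HT and 4.92 ± 0.673 in PT, against 6.10 ± 0.790 and 4.27 ± 0.873 on the long arm (SD, n = 4 lists each). The log2 ratio of short-arm to long-arm density was 0.43, 0.32, 0.07 and 0.05 in PT lists 1 to 4. In HT lists 1 to 4 it was 0.49, 0.36, 0.44 and 0.27. PT lists 3 and 4 were close to 0, and the groups overlapped. Over all lists the mean was 0.31 ± 0.17 (SD, n = 8 lists, above 0 in 8 of 8), with an exact sign-flip permutation p of 0.00781, the smallest that 8 lists allow (adjusted p = 0.0156). In the highest-scoring 50% of each list the mean was 0.17 and no longer past the threshold (exact permutation p = 0.0625). There the short arm was the sparser in PT lists 3 (2.53 against 2.70 peaks per Mb) and 4 (2.11 against 2.19). At equal list length the mean was 0.18 (exact permutation p = 0.0391), with the short arm again the sparser in PT lists 3 and 4 and the denser in the others.

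Whether the HT to PT ratio differed between the arms was tested on the same log2 ratios. The ratio of mean peak numbers was 1.62 on the short arm and 1.43 on the long arm. The log2 density ratio was 0.39 ± 0.10 in HT and 0.22 ± 0.19 in PT, a difference of 0.17 that did not pass the threshold (exact permutation p = 0.171, adjusted p = 0.206). In the highest-scoring 50% of each list the difference was 0.29 (exact permutation p = 0.0571).

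**Figure D1:**
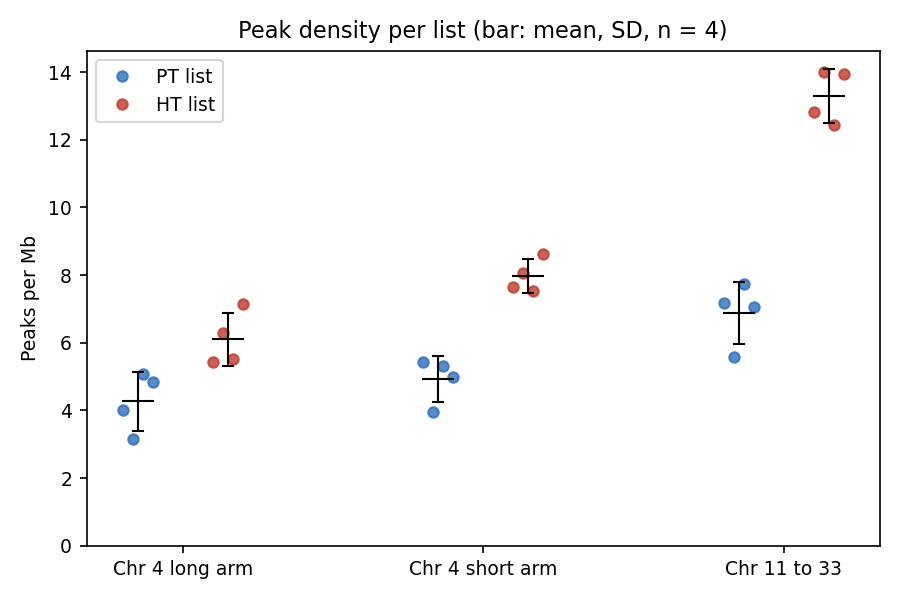
Peaks per Mb in each list (points) on the long arm of chromosome 4, the short arm and chromosomes 11 to 33, for PT (blue) and HT (red), with the mean and SD of 4 lists (black). The short-arm lists sit between 3.95 and 8.63 peaks per Mb, and the HT lists of chromosomes 11 to 33 stand apart at 12.4 to 13.997.

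Against chromosomes 11 to 33 the short arm was sparse. These chromosomes held 13.3 ± 0.789 peaks per Mb in HT and 6.88 ± 0.918 in PT. Lengths were taken to the last peak of any list, so their densities are upper estimates. The log2 ratio of short-arm to microchromosome density ran from -0.54 to -0.40 in PT and from -0.80 to -0.69 in HT. Every list was below 0, and the groups did not overlap. The mean over the 8 lists was -0.61 ± 0.14 (below 0 in 8 of 8; exact sign-flip permutation p = 0.00781, adjusted p = 0.0156).

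The HT to PT ratio also differed from that of the microchromosomes. Mean peak numbers on chromosomes 11 to 33 were 1.93 times as high in HT as in PT, against 1.62 on the short arm. The mean length of the whole lists was 1.61 times as high, close to the arm's ratio. The microchromosomes held 26.1 ± 0.606% of an HT list and 21.8 ± 0.430% of a PT list. The arm held 1.47% in both groups, and the long arm 4.28% of an HT list and 4.81% of a PT list. In the full lists the microchromosomes thus departed from the whole and the short arm did not. The log2 density ratio was -0.74 ± 0.05 in HT and -0.48 ± 0.06 in PT, a difference of -0.26 (SD, n = 4 lists each; exact permutation p = 0.0286, adjusted p = 0.0381). It was -0.45 at equal list length, with the same exact permutation p.

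The size of the gap in density depended on which microchromosomes were taken, since the smallest carry far more peaks per Mb. A comparison with chromosomes 11 to 20 without 16, which are nearer in size to the arm, was added after the data were seen. These 9 chromosomes held 9.63 ± 0.677 peaks per Mb in HT and 5.24 ± 0.907 in PT. The short arm was lower than they were by 0.18 on the log2 scale, in 7 of 8 lists (exact sign-flip permutation p = 0.0156, unadjusted). The difference between HT and PT was -0.19 (exact permutation p = 0.0286, unadjusted).

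Set beside single chromosomes, the arm's HT density of 7.96 peaks per Mb was below that of all 22 microchromosomes, the lowest being chromosome 11 with 8.08 ± 0.732. Its PT density of 4.92 was above 3 of the 22, chromosomes 15, 17 and 21. Chromosome 13, whose last peak ends at 19.02 Mb, had 9.46 ± 0.740 peaks per Mb in HT and 4.98 ± 0.880 in PT. The arm thus differed from chromosome 13 by more than the SDs in HT and by less in PT, with no test made. By HT to PT ratio, 20 of the 22 microchromosomes were above the arm's 1.62, and chromosomes 11 (1.51) and 25 were below it. Chromosomes 1, 2, 3 and 5 had ratios of 1.32 to 1.52 and chromosomes 6 to 10 of 1.43 to 1.68. By density, these larger chromosomes lay on both sides of the arm. In HT, 1 of the first 4 (6.73 to 7.997 peaks per Mb) and 3 of the other 5 (6.31 to 9.14) were denser than the arm. In PT, 2 of the 4 (4.44 to 6.04) and 3 of the 5 (4.04 to 5.52) were denser. The long arm had the lowest HT density of the numbered chromosomes, and only chromosomes 7, 15 and 21 were below it in PT.

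**Figure D2:**
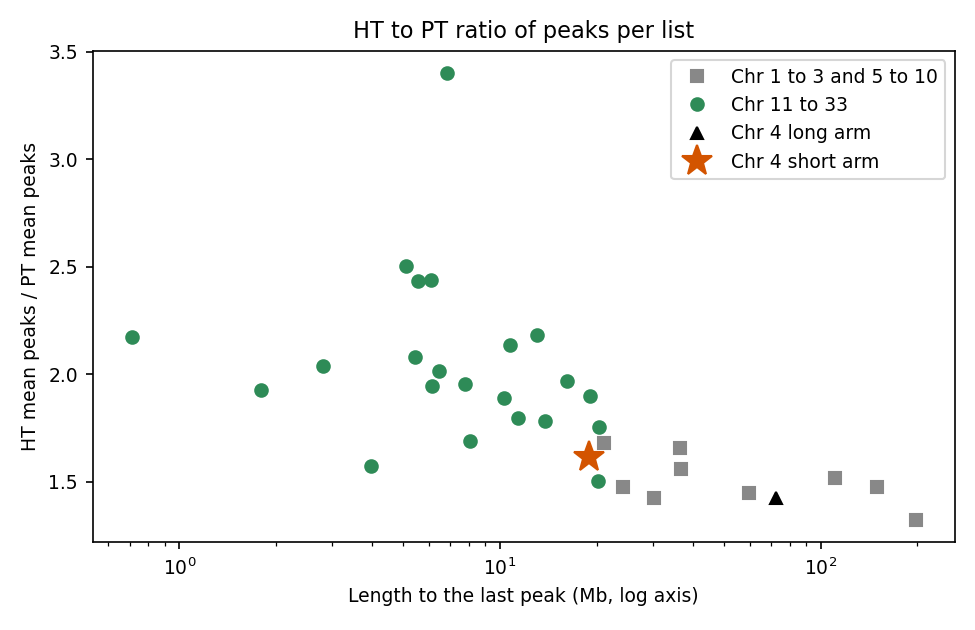
Ratio of mean HT to mean PT peak numbers against the length to the last peak (log axis) for the numbered chromosomes, with chromosome 4 divided into its arms. The short arm (star, 1.62) lies above the long arm (triangle, 1.43) and below 20 of the 22 microchromosomes (green).

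Peaks on the short arm were narrower than on the long arm and on chromosomes 11 to 33. The median width per list was 471, 471, 465 and 472 bp in PT and 478, 457, 465 and 462 bp in HT. The groups overlapped, with means of 470 ± 3.20 bp in PT and 465.5 ± 8.96 bp in HT (difference -4.25 bp, exact permutation p = 0.429, adjusted p = 0.468). At equal list length that difference was -69.1 bp (exact permutation p = 0.0571). It was nearly the same on the long arm, -68.75 bp, and 2 bp on chromosomes 11 to 33. Against the long arm of the same list the short arm's median was lower in 8 of 8 lists, by a mean of 15.8 bp (range of the differences -27.5 to -5 bp; exact sign-flip permutation p = 0.00781, adjusted p = 0.0156). Against chromosomes 11 to 33 it was lower by 25.4 bp, again in 8 of 8 lists (same exact permutation p and adjusted p).

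Both width differences moved with the setting. The difference from the long arm was -26.8 bp in the highest-scoring 50% (exact permutation p = 0.109) and -21.7 bp at equal list length (exact permutation p = 0.0547). The order was not kept in every list. In HT list 1 the short arm had the wider median in both settings (446 against 410 bp and 446 against 416.5 bp). In PT list 4 it had the wider median in the highest-scoring 50% only (421.5 against 401 bp). The difference from the microchromosomes was -67.2 bp in the highest-scoring 50% and -9.75 bp without the outer 1 Mb of each chromosome (exact permutation p = 0.00781 and 0.0469). Without the outer 1 Mb the order turned in PT lists 1 (479 against 476.5 bp) and 2 (490 against 481 bp). Against chromosomes 11 to 20 without 16 the difference was -15.6 bp (exact permutation p = 0.00781, unadjusted).

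Wide peaks were few on both arms of chromosome 4. Short-arm peaks over 1000 bp numbered 1 in each list but HT list 4, which had 3. They made up 0.654% to 1.83% of short-arm peaks, against 0.857% to 2.86% on the long arm, which overlaps, and 7.05% to 10.7% on chromosomes 11 to 33. The score is the value the authors' caller gave each peak, and its scale is not stated. Lists were compared by ranks within each list, and the raw scores given further below describe single peaks. The median short-arm peak ranked at percentile 40.02 to 47.7 of its list, below the middle in each of the 8 lists. Medians were 44.0 to 55.3 on the long arm and 49.7 to 54.3 on chromosomes 11 to 33. On chromosomes 11 to 20 without 16 they were 44.96 to 47.13 in HT and 47.6 to 51.8 in PT. These were below the middle in every list but PT list 2, so such a median does not by itself set the arm apart. The short arm was the lower of the pair in each list, by little in HT list 2 (47.01 against 47.13), with no test made. The top 10% of a list took in 2.07% to 6.67% of its short-arm peaks, 5.09% to 7.46% of its long-arm peaks and 10.7% to 14.1% of those on chromosomes 11 to 33. The short arm had the higher share of the arms in PT lists 3 and 4 and the lower in the other lists.

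Few short-arm peaks were found in both groups. Of the peaks of a PT list, 6.80%, 8.0%, 6.93% and 6.32% overlapped a peak of any HT list by at least 1 bp. Of those of an HT list, 5.52%, 5.23%, 4.2% and 2.44% overlapped a peak of any PT list. The shares on the long arm were 9.43% to 12.3% in PT and 6.59% to 8.91% in HT, and those on chromosomes 11 to 33 were 25.8% to 32.6% and 14.2% to 16.1%. In every list the short arm had the lowest share of the 3.

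The difference from the long arm averaged -3.41 percentage points and that from chromosomes 11 to 33 averaged -16.0 points, each in 8 of 8 lists (exact sign-flip permutation p = 0.00781, adjusted p = 0.0156 for both). Against chromosomes 11 to 20 without 16 it was -9.21 points, and against the long arm at equal list length -7.60 points. An overlap counts for a list of each group, so the 8 values are not independent even if the lists are. On the short arm the shared peaks lie in only 11 regions. More of the sequence was covered on the microchromosomes, 8.13 kb per Mb in HT and 4.31 in PT, against 3.83 and 2.44 on the short arm and 3.13 and 2.16 on the long arm. Coverage alone lets denser stretches overlap more often, and its part in the difference from chromosomes 11 to 33 was not tested. Between the arms, where the long arm had the lower coverage and the higher shared percentage, the part of coverage was not tested either.

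**Figure D3:**
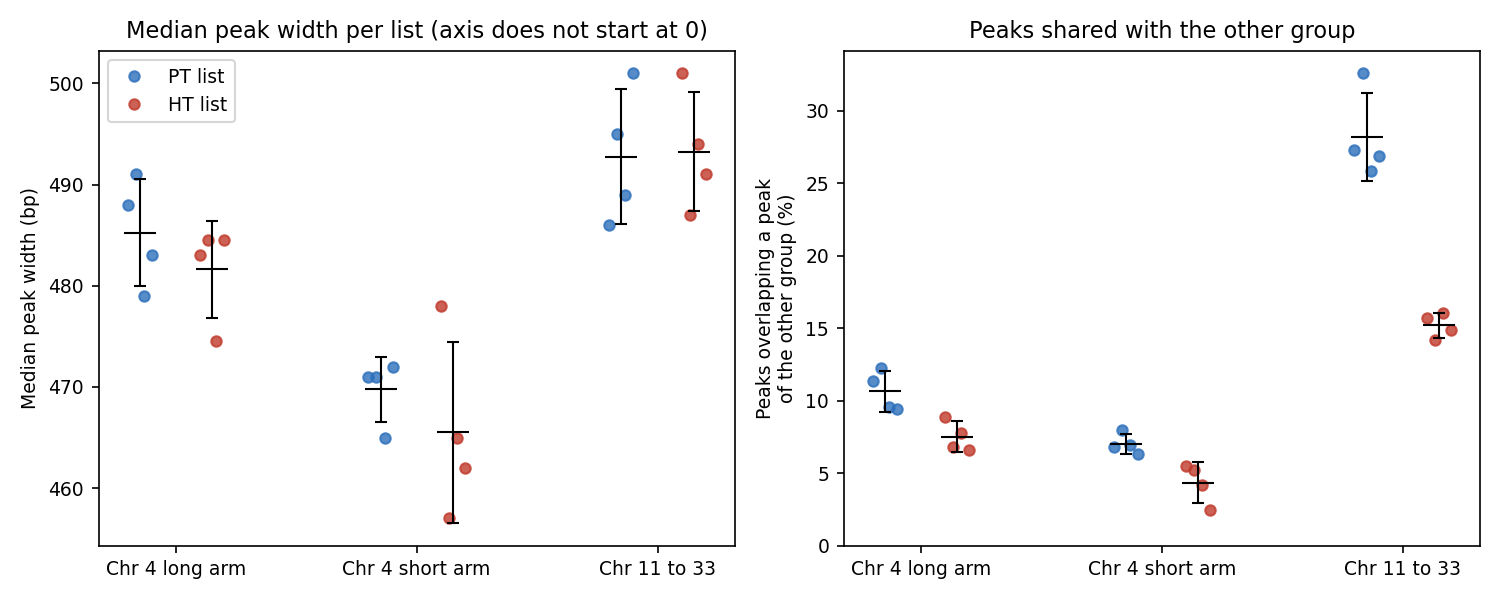
Left, median peak width in bp per list, on an axis that does not start at 0. Right, percent of a list's peaks that overlap any peak of the other group. Points are lists (PT blue, HT red), black marks give the mean and SD of 4 lists, and the short arm has the lowest mean in each panel for both groups.

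Over covered bases, pairs of lists overlapped less between the groups than within them. On the short arm the Jaccard index, the bases that a pair of lists share over those in at least 1 of them, had a mean of 0.355 for the 6 PT pairs (0.267 to 0.470). For the 6 HT pairs the mean was 0.409 (0.332 to 0.598). For the 16 pairs of a PT and an HT list it was 0.0382 (0.0319 to 0.0436). The highest value between groups was thus below the lowest within a group. On the long arm the value between groups was 0.0481 and on chromosomes 11 to 33 it was 0.142. The means within PT and within HT were 0.356 and 0.377 on the long arm. On chromosomes 11 to 33 they were 0.510 and 0.534, so pairs within a group also overlapped more there than on the short arm. Every short-arm pair between groups holds the region chr4:17773-22005, 4233 bp wide. Such a pair had only 2 to 6 overlapping short-arm peaks. The peak in this region was the widest short-arm peak of every list, at 3432 to 4233 bp. The values between groups thus rest on few peaks, and the weight of this region in them was not computed.

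Of the 520 short-arm regions, 328 (63.1%) were held by a single list, against 55.9% of all 30246 regions. The long arm had a higher share, 66.3%, and chromosomes 11 to 33 a lower one, 52.0%. PT list 4 and HT list 4 contributed the most single-list regions of the short arm in their groups, with 47 of its 95 regions and 75 of its 164. HT-only regions, those in each of the 4 HT lists and in no PT list, numbered 72 (13.8%), close to the 14% over all regions, with 10.4% on the long arm and 16.9% on chromosomes 11 to 33. PT-only regions, defined in the reverse way, numbered 32 (6.15%), against 6.83% over all regions, 6.36% on the long arm and 6.17% on chromosomes 11 to 33. The arm's shares of group-specific regions were thus near the background and are no result about the arm. With 5120 peaks per list the counts were 17 and 19, so the excess of HT-only regions was not seen at equal list length.

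Regions in both groups were rarer than over the whole genome. At least 1 list of each group held 11 of the 520 regions (2.12%), against 6.81% over all regions, 3.27% on the long arm and 7.36% on chromosomes 11 to 33. All 8 lists held 2 regions (0.385%), against 2.41% over all regions, 0.606% on the long arm and 2.91% on chromosomes 11 to 33. A PT list shared 3 (4.0%) of the 75 regions that every HT list held. The same share was 21.1% over all regions, 11.4% on the long arm and 20.5% on chromosomes 11 to 33. An HT list shared 4 (11.1%) of the 36 that every PT list held. Here the share was 34.2% over all regions, 15.3% on the long arm and 39.0% on chromosomes 11 to 33. The HT-only regions had a PT peak at a median distance of 24.8 kb (736 bp to 288 kb), with 3 of 72 within 1 kb. The PT-only regions had an HT peak at a median distance of 17.4 kb (837 bp to 48.1 kb), with 2 of 32 within 1 kb. No background from other parts of the genome is given for these distances.

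**Figure D4:**
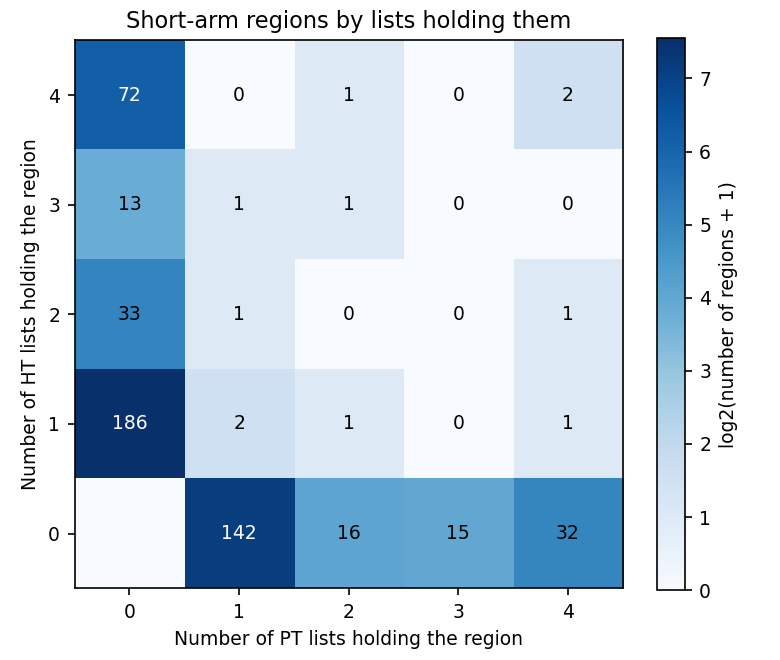
Number of short-arm regions held by each number of PT lists (horizontal) and HT lists (vertical), shaded by log2 of the number plus 1. The counts lie along the edges, with 186 regions in a single HT list, 142 in a single PT list, 72 in all 4 HT lists only and 32 in all 4 PT lists only, and 11 regions lie off the edges.

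The 2 regions held by all 8 lists differed widely. The first, chr4:17773-22005, lies at the outer end of the arm and was its first region, 4233 bp wide. Its scores were 968.43, 1073.94, 1103.35 and 1065.86 in PT lists 1 to 4 and 914.45, 1105.08, 1122.07 and 1095.89 in HT lists 1 to 4. It held the highest score of the arm in every list. The second, chr4:17467081-17467617, was 537 bp wide, with scores of 50.59 to 76.38 in PT and 64.68 to 98.13 in HT. At most 3 lists gave the same peak ends in the first region, and 4 in the second.

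Regions were named by a fixed rule, as the 10 HT-only and the 10 PT-only regions whose scores ranked highest, on average, within their lists. First among the HT-only regions was chr4:8981453-8981661, 209 bp wide, with scores of 111.11, 113.63, 115.8 and 110.72 in HT lists 1 to 4. Another of the 10, chr4:8974109-8974607, lies close beside it. Next in rank were chr4:13935766-13936100 (scores 69.28 to 109.62), chr4:3872913-3873239 (74.13 to 99.87) and chr4:3894169-3894456 (74.13 to 82.7). The third and the fourth of these do not overlap, and yet HT lists 1, 3 and 4 gave both the same scores, 74.42, 77.88 and 74.13, so an equal score does not show the same fragments. The others were chr4:13510767-13511035, chr4:1856309-1857068, chr4:4061374-4061626, chr4:15342079-15342695 and chr4:10281408-10281944. The width of these 10 regions ranged from 209 to 760 bp. Peak ends were the same in every HT list for 4 of the 10.

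First among the PT-only regions was chr4:2217279-2217482, 204 bp wide, with scores of 198.51, 198.51, 197.03 and 184.09 in PT lists 1 to 4. Next were chr4:3037761-3038115 (76.27 to 136.16), chr4:11805148-11805403 (92.98 to 106.97) and chr4:5184917-5185449 (69.59 to 126.21). The others were chr4:5246727-5247193, chr4:342402-342902, chr4:1627211-1627599, chr4:237087-237529, chr4:15682518-15682993 and chr4:17276034-17276601. The width of these 10 regions ranged from 204 to 568 bp. Peak ends were the same in every PT list for 6 of the 10. At least 2 lists gave identical ends in 71 of the 72 HT-only and in all 32 PT-only regions of the arm. The first region of each set was near the narrowest short-arm peak of its lists, 203 to 204 bp in PT and 206 to 209 bp in HT. Whether score goes with width was not tested. The treatment of duplicate reads is not given in the sources used here, so rank by score cannot be read as strength of binding. Neither genes nor sequences of these regions are named, since the genome and annotation of galGal6 were not used here.

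Peaks were spread unevenly along the arm. It was divided into 19 parts of 1 Mb, numbered from the outer end. The HT mean ran from 1 peak per list in part 8 to 15.25 in part 1, and the PT mean from 1.25 in part 9 to 10 in part 3. Every HT list exceeded every PT list in 7 of the 19 parts, or 36.8%, against 36% of 1067 such parts over the numbered chromosomes, Z and W. In none of the 19 did every PT list exceed every HT list, against 1.22% over the genome. These shares are near the background. The 7 were parts 1, 2, 4, 6, 7, 9 and 12.

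Single parts showed the range. Part 4 held 10, 12, 11 and 15 peaks in HT lists 1 to 4 and 5, 3, 4 and 3 in PT lists 1 to 4, and 9 of the 72 HT-only regions lay in it. Part 12, in the interior of the arm, held 15, 11, 13 and 16 in HT and 10, 3, 4 and 5 in PT, where PT list 1 came near the HT lists. Part 9 held 7, 8, 6 and 5 in HT and 1, 0, 0 and 4 in PT. The order turned in parts 8 and 10: part 8 held 1, 0, 1 and 2 peaks in HT and 4, 1, 5 and 4 in PT, and part 10 held 2, 5, 5 and 3 in HT and 6, 5, 10 and 6 in PT. In both the groups touched or overlapped. Neither had an HT-only region, while part 8 held 1 PT-only region and part 10 held 2. These parts were picked by their peak counts, on which the number of HT-only or PT-only regions depends. No background is given for such numbers per part. Beside the limit, part 19 held 0 to 4 peaks in HT and 1 to 4 in PT, and the first 1 Mb beyond the limit held 3 to 8 in HT and 5 in every PT list.

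The outer 6 Mb of the arm, a division chosen after the parts were seen and therefore not tested, held 75, 77, 74 and 79 peaks in HT lists 1 to 4 and 46, 34, 41 and 44 in PT lists 1 to 4. That was 12.7 peaks per Mb in HT and 6.88 in PT, against 5.77 and 4.02 over the remaining 13 Mb. The outer part took 48.2% to 51.7% of an HT list's short-arm peaks and 40.6% to 46.3% of a PT list's. The HT to PT ratio was 1.85 there and 1.44 over the rest. At the other end of the chromosome, the outer 6 Mb of the long arm to its last peak held 12.2 peaks per Mb in HT and 6.79 in PT, a ratio of 1.79, and the rest of the long arm 5.55 and 4.04, a ratio of 1.37. The outer segments of both arms thus had densities and ratios near each other, as had their remainders. The outer 6 Mb make up a larger part of the short arm than of the long arm, and the part of this in the difference in density between the arms was not tested.

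**Figure D5:**
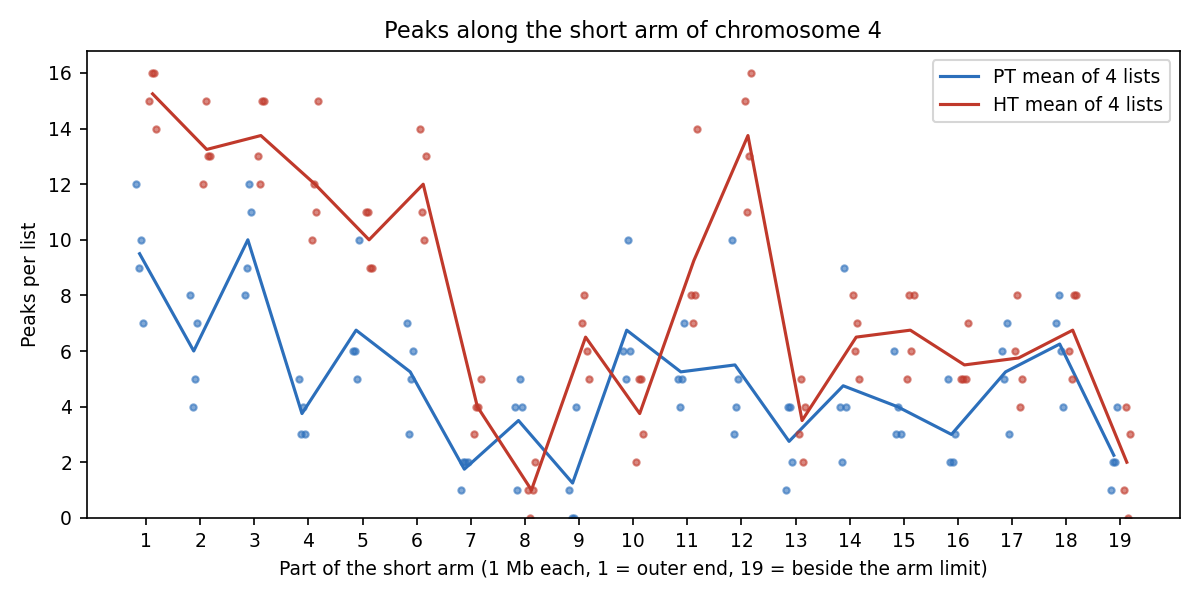
Peaks per list in each 1 Mb part of the short arm, numbered from the outer end, with points for single lists and lines for the means of 4 PT lists (blue) and 4 HT lists (red). The HT mean is 10 to 15.25 in parts 1 to 6, falls to 1 in part 8 and reaches 13.75 again in part 12.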

How the data were processed

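The deposited lists have 5 columns, which give each peak's chromosome, start, end, name and, from the authors' caller, a score of unstated scale that ran from 40 to 3100. Cutadapt (1.9.2) and Bowtie2 (2.2.4) are named with the build galGal6, per the submitters' processing notes. Peak names begin with MACS. Caller settings, duplicate treatment, any control and whether lists were called separately are not given in the sources at hand. The lists hold no counts, so no counting interval was possible. Starts were raised by 1 base for printing. Peaks were assigned by their start, and a list held a region with at least 1 bp of a peak. Chromosome lengths were taken to the last peak.

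HT and PT means were compared by an exact permutation test over 70 relabellings, and zones within lists by an exact sign-flip test over 256 patterns, with Benjamini-Hochberg adjustment over 12 tests and a threshold of 0.05. The arm, the tests and the naming rule were chosen with earlier results of these data known. The named regions are the 10 per direction, and those in all 8 lists, with the highest mean score percentile. Alternatives used stronger peaks, equal list lengths, other arm limits, other microchromosomes, other merging and overlap rules, the replicate number as a block, and each list left out. Code was tested on simulated data. Calculations used Python (3.11.15) with numpy (2.4.6) and pandas (2.3.3), and figures matplotlib (3.10.9).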

Additional observations from a re-analysis of the deposited data

Results flagged for a closer look

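The HT minus PT difference in the log2 ratio of short-arm to microchromosome density, -0.26, stood out because the HT to PT effect differed between these parts of the genome in the exact permutation test. The arm's HT to PT ratio of 1.62 was close to the 1.61 of the whole lists, and that of the microchromosomes was 1.93. The median short-arm peak width of PT list 3, 465 bp, lay apart from the 471 to 472 bp of the other PT lists by Dixon's test, although the gap is only 6 bp. That test was run on 8 measures in both groups, 16 times in all, and 1 passed. Chance alone flags about 1 in 20 groups.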

How the results depend on the processing

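Direction and call were kept, or a count stayed within 1.5 times, in 194 of 218 alternative values. Many of these leave out a single list, which says little when lists share ends. Causes of the exceptions were not tested unless the setting gives them. At equal list length (5120 peaks), the HT minus PT difference turned to -9 peaks, -0.176 points of share and -5.84 kb of covered length, the median width against the long arm was -21.7 bp (no longer past the threshold), and HT-only regions numbered 17 and PT-only regions 19. That cut drops more low-scoring peaks from the longer HT lists, and peak numbers on the long arm turned too, to -58.5. In the highest-scoring 50%, the share difference was -0.0323 points, density against the long arm 0.17 (log2) and width against it -26.8 bp, both no longer past the threshold, with 20 HT-only, 12 PT-only and 1 common region. The share difference, near 0 and never past the threshold, was also -0.0287 points with the limit at 20 Mb, -0.00732 without the outer 1 Mb of each chromosome and -0.0221 to 0.0462 when each list was left out. Without the outer 1 Mb, 1 region of all 8 lists was left. Regions in which no pair of lists has identical ends, added after the data were seen, numbered 1 HT-only, 0 PT-only and 0 common. The replicate block gave differences of 57.75 peaks, 26.4 kb and -0.26 for density against microchromosomes, each with an exact permutation p of 0.125, below which sign flips of 4 pairs cannot go. In peak counts over 1067 parts of 1 Mb, no pairing by number was seen. Correlations of same-numbered lists' deviations ran from -0.146 to 0.0917, and 0 of 4 HT lists correlated best with their own number. Such counts cannot show whether same-numbered samples were handled together. Read depth, on which the length of a list depends, is unknown.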
